A study of Mus musculus with 2 samples.

Results

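The genes described here are the heat shock proteins, their cochaperones and the heat shock factors of mouse uterine epithelial cells. They were chosen by symbol: names beginning with Hsp followed by a, b, d, e, h or a digit, numbered Dnaja, Dnajb and Dnajc genes, Bag genes with 1 digit, numbered Cct genes and numbered Hsf genes. The endoplasmic reticulum (ER) chaperone genes Hspa5, Hsp90b1, Dnajb9, Dnajb11 and Dnajc3 and the proteoglycan gene Hspg2 were left out. The rule found 86 genes with 203 probe sets among 18193 named genes, and each of the 203 probe sets carried a signal above 0 on both arrays. Although the set is labelled cytosolic, its symbols also take in 8 genes whose products work in mitochondria (such as Hspd1, Hspe1 and Hspa9) and 9 of the ER or its membrane (such as Dnajc10 and Hspa13). Hsf2bp, Hspb11 and Hspbap1 share a name with the families and are not chaperones in the usual sense.

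Heat shock proteins bind unfolded polypeptides and let them fold, refold or be passed on for destruction. HSP70 proteins do so in a cycle driven by ATP, in which J-domain proteins (the DNAJ families) deliver clients and trigger hydrolysis, and BAG and HSP110 proteins exchange the nucleotide. HSP90 completes the folding of kinases and of steroid receptors, including those for progesterone and oestrogen, which makes this machinery part of hormone action in the uterus. The ring-shaped CCT complex folds actin and tubulin, and heat shock factor HSF1 switches many of these genes on under stress.

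The study compared 1 Affymetrix array from floxed control mice with 1 array from Msx1Msx2-null mice, all C57BL/6 on day 4 of pregnancy. In the null mice the homeobox genes Msx1 and Msx2 were ablated with Cre from the PRcre line, in which the progesterone receptor locus drives Cre, so the loss is not confined by design to epithelium. The labels do not say whether controls carried Cre or whether RNA of several mice was pooled on an array, and their texts give 5 mice per genotype in one place and 4 in another, where the cells are called stromal. Both genotypes went through the same isolation: uterine pieces lay in 1% trypsin for 90 min at a temperature written as 40 C, then for 30 min at room temperature, before the epithelium was squeezed out.

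Values are signal intensities from the MAS5 algorithm, on a linear scale, and differences are log2 of null over control. A floor of 21.1, the 50th percentile of all non-control signals, marks what was taken as measured, and a value below it was set to it. Each gene took its probe set with the highest mean signal. With 1 array per genotype there is no replicate, no test and no p-value. The spread at hand is that among probe sets of the same gene. Its standard deviation was 0.38 on the log2 scale over 4645 genes. It was 0.41 over the 41 members with more than 1 probe set that exceeded the floor in both samples. This spread lies within the same arrays and does not measure variation between mice, isolations or arrays. Genes past 2-fold are called higher or lower. Msx1 read 3474 in control cells and 42.3 in null cells, and Msx2 63.4 and 23.6, 82.1-fold and 2.69-fold lower; whether these probe sets fall within the deleted sequence is not given in the sources used here. Epithelial markers were bright on both arrays, such as Epcam (5201 and 5000) and Krt8 (6337 and 7296), and apart from Msx1 the 11 measured ranged from -0.35 for Cdh1 to 0.55 for Krt19. Of 5 luminal markers Sprr2f was 3.61-fold higher in the null. The other 4 lay within 1.5-fold, Ihh at 0.51, Calb1 at 0.16, Wnt7a at -0.10 and Lpar3 at -0.56. Of 5 glandular markers Cxcl15 (42.2 and 194) was 4.61-fold and Foxa2 (23.0 and 55.1) 2.40-fold higher, and Sox9 (68.0 and 30.3) 2.24-fold lower. Each of these 3 was dim on at least 1 array. Summed signals of 12 stromal markers were 9416 and 11794, of 9 smooth muscle markers 523 and 1273 and of 9 macrophage markers 5468 and 6175. Of the 11, 8 and 9 measured genes 10, 6 and 8 were above 0 in log2 difference, beside 6651 of all 11662 genes compared. All 6 muscle genes above 0 were at least 2-fold higher, with a median of 1.26 over the 8, beside 7.73% of all genes. Of these Myh11, Cnn1 and Actg2 were below the floor in the control. At least 2-fold higher were 2 of the macrophage markers and none of the stromal ones. Without Dcn, the brightest, the stromal sums were 5203 and 7917. Most of the macrophage sum was Cd14; the other 8 summed to 1208 and 2090, and the median over the 9 was 0.86. Of 5 B and plasma cell markers Jchain read 71.5 and 978, whereas the other 4 summed to 89.6 and 83.2, with Cd79a and Ms4a1 below the floor. The stromal marker Pdgfrb and the muscle marker Lmod1 were below the floor on both arrays. The 3′ to 5′ signal ratios, a measure of RNA integrity, were 1.62 and 1.56 for Actb and 0.809 and 0.841 for Gapdh. Endothelial markers summed to 442 and 643, with 7 of 8 above 0. Dim T and NK cell markers summed to 128 and 276, with all 6 measured above 0. Mesothelial markers went the other way, with 4 of 5 below 0 and a median of -0.57. Of the neutrophil and of the erythroid markers only 1 each was measured. The part of these other cells in the results below was not tested, and in such bulk RNA fewer cells of a type and less RNA per cell cannot be told apart.

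The heat shock and cochaperone genes were much alike in the 2 samples. Of the 86 genes, 64 exceeded the floor in both samples, 2 in the control alone, 1 in the null alone and 19 in neither, so 67 were compared. None of the 67 was at least 2-fold higher in the null, where 7.73% of all 11662 genes compared were. At least 2-fold lower were 3 (4.48%), Bag5, Dnajb3 and Dnajc17, close to the 4.75% among all genes. The median log2 difference of the 67 was 0.03, beside 0.08 over all genes. Above 0 lay 37 and below it 30, beside 6651 and 5011 of all genes compared. Within 1.5-fold were 55 of the 67 (82.1%), beside 70.5% of all genes compared. The extremes ran from -1.87 for Dnajc17 to 0.75 for Hspbp1.

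Genes of higher signal differed less between the arrays. Split by mean signal at 99.0 and 368 into 3 groups of equal size, the brightest group, which held 36 members, had 4.04% of genes at least 2-fold higher and 3.50% lower, and 78.4% within 1.5-fold, as were 32 of the 36 members. In the dimmest group 12.2% of genes were at least 2-fold higher and 61.0% within 1.5-fold; none of its 13 members was 2-fold higher, and 8 lay within 1.5-fold. The middle group held 18 members, 15 of them within 1.5-fold, beside 72.0% of its genes. Between the arrays, the log2 signals of the 138 member probe sets measured in both had r = 0.98, beside r = 0.93 for 18185 named probe sets; points share the arrays and genes are not independent replicates.

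**Figure D1:**
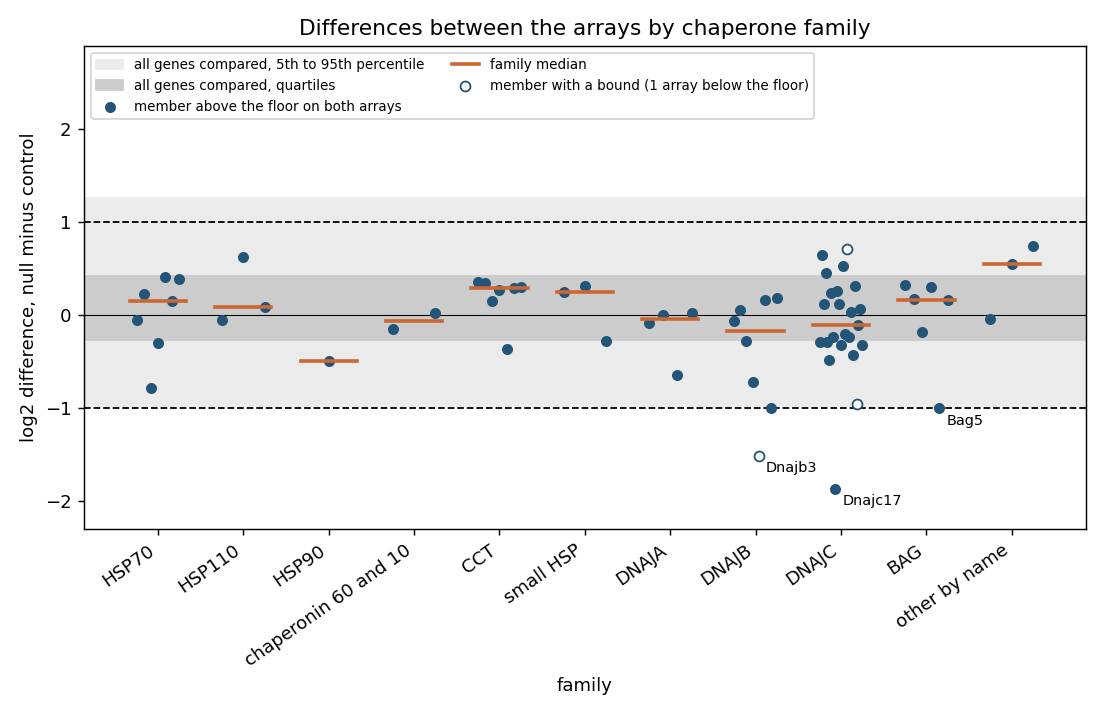
Log2 differences (null minus control, vertical axis) of the 67 members compared, by family; filled points exceed the floor in both samples, open points are bounds, orange bars are family medians, grey bands show all genes compared and dashed lines mark 2-fold. Dnajc17, Dnajb3 and Bag5 lie past the lower line and no member lies past the upper one.

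The heat shock factors that the rule found were not measurable. Hsf1 was not among them, since no probe set named it alone, so HSF1 itself was not read. Hsf2, a developmental partner of HSF1, read 13.3 in control cells and 13.8 in null cells. Hsf4, a factor known from the lens, read 16.5 and 15.8, and Hsf5 7.83 and 8.60. All 3 lay below the floor on both arrays, so no difference can be given, and Hsf2bp, a meiotic partner of HSF2, was below it too at 12.2 and 10.6.

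Genes that HSF1 is known to drive, from a list of 26 chosen with earlier results of these data known, are the usual readout of a heat shock response. Of the 15 list genes that the symbol rule takes in, 14 were compared. Hsp90ab1 was not, since no probe set named it alone. None of the 14 was 2-fold different in either direction, beside 12.5% of all genes compared, and 0 of 14 is not far from that share. The median of the 14 was -0.08. Of the other 11, 8 were compared, with a median of 0.10. Serpinh1, the collagen chaperone of the ER, was the exception at 356 in control cells and 758 in null cells, 2.13-fold higher. Of the 11 stromal markers measured, 10 were above 0, with a median of 0.55 and none 2-fold higher. They ran from -0.12 for Dcn to 0.86 for Col1a2 (1134 and 2062), which encodes a collagen chain. The part of stromal cells in the Serpinh1 value was not tested. The values of the heat-inducible members follow under their families.

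HSF1 binds heat shock elements, inverted repeats of the unit GAA. Promoter windows from RefSeq (build GRCm38.p6), reaching from 250 bases before each gene's start to 50 after it, were at hand for 70 of the 86 genes and were searched on both strands for a pair of units, GAANNTTC or TTCNNGAA, and for 3 units in a row, GAANNTTCNNGAA or TTCNNGAANNTTC, which contain overlapping pairs. A pair was present in 22 of the 70 genes (31.4%), beside 17.0% of all 27025 genes with a window and 13.9% of the 9449 of those compared on the arrays, and 3 units in 4 genes (5.71%), beside 0.66%. Among the 12 HSF1 targets with a window 10 held a pair, and among the other 58 members 12 (20.7%). The 6 windows below are those of the HSF1 targets among the members with the most matches, ties being settled by signal (outside the targets, Dnajb6 and Dnaja4 have 2 pairs each); each gives the 150 bases before the start, 5′ to 3′ on the gene's own strand, with matched bases in capitals.
Hspe1 promoter, chr1:55087998-55088147, plus strand: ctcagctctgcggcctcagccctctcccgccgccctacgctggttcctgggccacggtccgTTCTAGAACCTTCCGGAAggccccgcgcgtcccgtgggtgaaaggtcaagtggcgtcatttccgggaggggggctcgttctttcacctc
Hspd1 promoter, chr1:55087933-55088082, minus strand: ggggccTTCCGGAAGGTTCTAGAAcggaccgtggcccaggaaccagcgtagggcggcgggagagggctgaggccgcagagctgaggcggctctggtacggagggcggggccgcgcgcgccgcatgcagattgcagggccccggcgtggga
Hsph1 promoter, chr5:149636316-149636465, minus strand: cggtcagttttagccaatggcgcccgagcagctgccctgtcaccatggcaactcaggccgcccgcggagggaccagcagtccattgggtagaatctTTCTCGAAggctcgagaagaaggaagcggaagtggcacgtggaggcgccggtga
Hspb1 promoter, chr5:135887769-135887918, plus strand: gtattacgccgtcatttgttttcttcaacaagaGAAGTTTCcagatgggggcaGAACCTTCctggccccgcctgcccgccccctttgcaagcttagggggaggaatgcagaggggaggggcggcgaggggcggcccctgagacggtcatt
Dnaja1 promoter, chr4:40722318-40722467, plus strand: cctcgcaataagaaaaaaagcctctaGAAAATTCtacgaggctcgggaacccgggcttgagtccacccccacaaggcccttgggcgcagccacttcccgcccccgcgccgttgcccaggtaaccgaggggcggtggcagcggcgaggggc
Hspa1b promoter, chr17:34959239-34959388, minus strand: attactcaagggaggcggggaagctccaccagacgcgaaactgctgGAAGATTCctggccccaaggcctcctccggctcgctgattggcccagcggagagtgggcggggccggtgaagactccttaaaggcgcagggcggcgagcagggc

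Hspe1 and Hspd1 start back to back, and their windows overlap by 285 bases, so the same run of 3 overlapping pairs appears in each on opposite strands, at positions -89 to -72 from the Hspe1 start and -144 to -127 from that of Hspd1. Hsph1 has a pair at -54 to -47 and 2 overlapping pairs at 16 to 28 after its start, outside the stretch shown. The windows of Hspa1a and Hspa1b are identical at 296 of 300 bases, and both have the pair GAAGATTC at -104 to -97. The match is a description and not a measured binding site. Members with a pair had a median log2 difference of 0.06 (18 compared, none 2-fold different), those without one -0.07 (37 compared, 3 lower), and the 4 with 3 units ranged from -0.15 to 0.18. The groups overlap. Over all genes compared, the 1311 with a pair had a median of 0.07, with 6.56% at least 2-fold higher and 5.49% lower, and 0 of 18 is near these shares. The windows of Bag5, Dnajb3 and Dnajc17, the genes called lower, held no match in these letters.

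HSP70 genes differed by less than 2-fold in all 7 compared, and the stress-inducible pair was lower in the null. Hspa8, the constitutive cytosolic HSP70, read 9816 in control cells and 10949 in null cells, a log2 difference of 0.16. The stress-inducible genes Hspa1a and Hspa1b are near-identical copies, so their probe sets may share signal. Hspa1a read 978 and 570, 1.72-fold lower in the null (log2 -0.78), from its single probe set. Hspa1b read 3911 and 3174 by its brightest probe set (-0.30) and had further probe sets at -0.49 and -0.09. All 4 probe sets of the pair were thus lower in the null, none by 2-fold. With the arrays set to their spike-in controls, which shifts every difference down, Hspa1a passed 2-fold.

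The remaining HSP70 genes were not past 2-fold either. Hspa9, the mitochondrial HSP70 or mortalin, read 527 and 689 (0.39), with further probe sets at 0.22 and -0.24. Hspa2, best known from the testis, read 132 and 177, Hspa13, an ER-associated form, 294 and 285, and Hspa14, a partner of the ribosome, 384 and 449. Hspa1l, Hspa12a and Hspa12b were below the floor on both arrays. Over the 7 genes of the family compared the median was 0.16, from -0.78 to 0.42.

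HSP110 proteins are relatives of HSP70 that act as its nucleotide exchange factors. Hspa4 read 2341 and 2263 (-0.05) and Hsph1, an HSF1 target, 603 and 642 (0.09), with its other probe set at -0.25. Hspa4l was dim at 56.1 and 86.4 (0.62), and its 4 measured probe sets ran from -0.88 to 0.92, so that its direction depends on the probe set taken. Hsp90aa1, the inducible cytosolic HSP90, read 3187 in control cells and 2266 in null cells, 1.41-fold lower (-0.49). Further probe sets gave -0.47 and -0.28, so that all 3 bright ones were lower in the null by less than 1.5-fold. Hsp90ab1, the other cytosolic HSP90 gene, was not read, since no probe set named it alone.

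The chaperonins differed by less than 1.5-fold in each gene compared. Hspd1, the mitochondrial HSP60, read 2330 and 2097 (-0.15), and its lid Hspe1 read 3316 and 3377 (0.03), with its other probe set at -0.27. These are the 2 genes that share the promoter printed above. For the cytosolic CCT ring, Cct2 read 3851 and 4921 (0.35), Cct3 1529 and 1947 (0.35), Cct4 2090 and 2322 (0.15) and Cct5 2317 and 2795 (0.27). Cct7 read 1926 and 2352 (0.29) and Cct8 969 and 1198 (0.31), whereas Cct6a read 2216 and 1723 (-0.36). So 6 of 7 subunits were above 0 by a narrow margin, beside 6651 of all 11662 genes compared. The median of the subunits was 0.29. That pattern rests on the scaling and on the probe set: set to the spike-in controls the CCT median was 0.00, and the second probe set of Cct6a gave 0.20 while 1 of 3 probe sets of Cct2 gave -0.39 and 2 of 6 of Cct4 lay below 0, the lower at -0.24. Cct6b and Cct8l1, forms known from the testis, were below the floor.

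**Figure D2:**
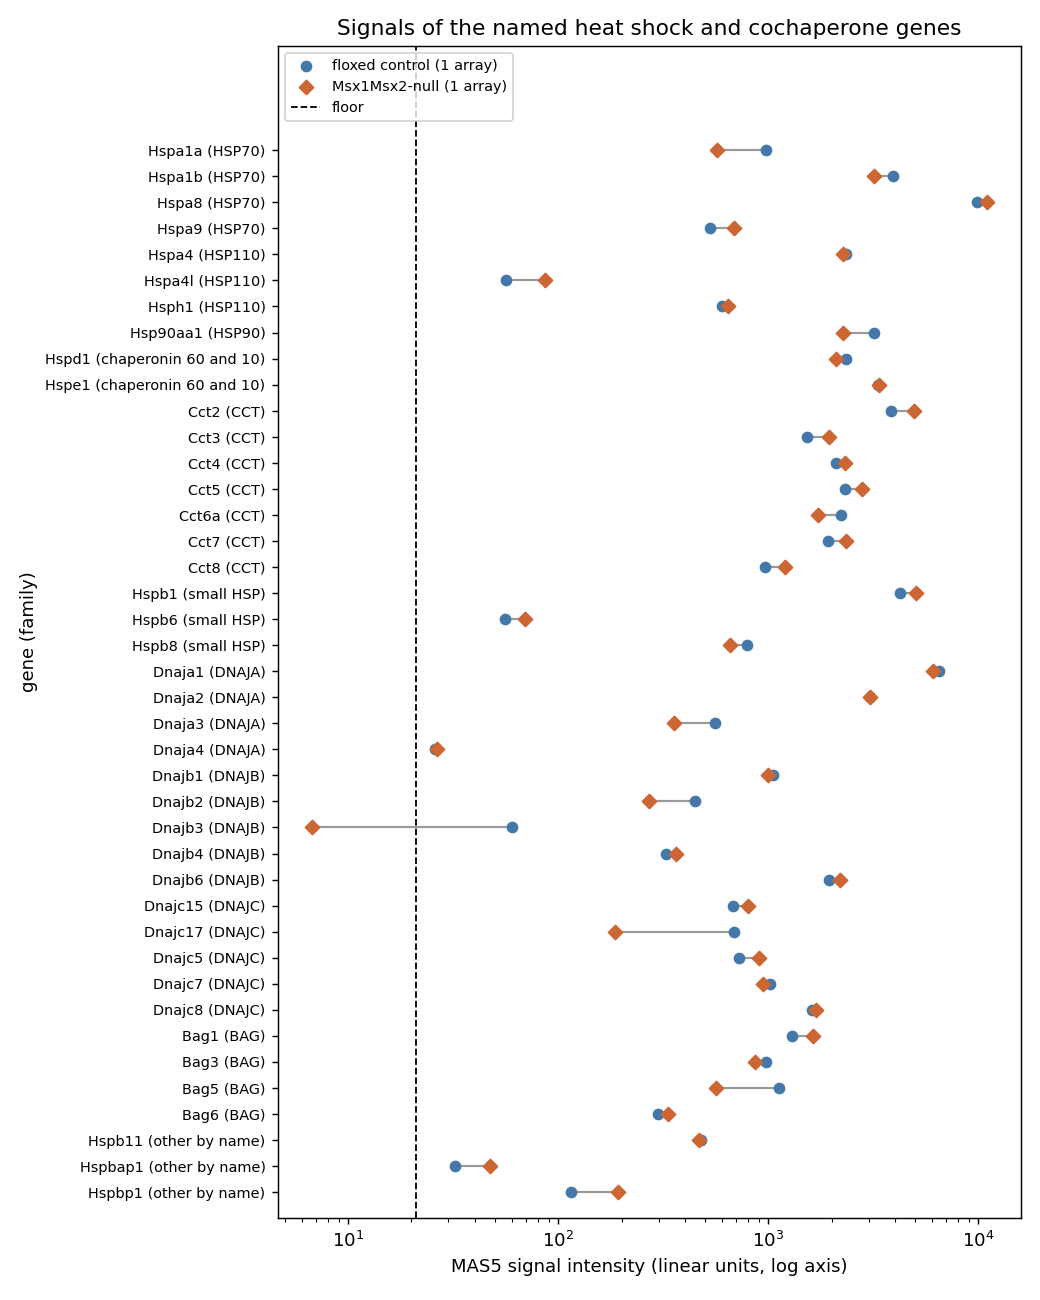
MAS5 signal intensity (horizontal log axis) of the 41 named members on the floxed control array (circles) and the null array (diamonds), 1 array each, with the floor of 21.1 as a dashed line. Most pairs nearly coincide, and the wide gaps are those of Dnajb3, Dnajc17 and Bag5; positions of different genes cannot be set against each other because each probe set has its own brightness.

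Small heat shock proteins hold unfolding clients without using ATP. Hspb1, HSP27 in human nomenclature, read 4234 in control cells and 5035 in null cells (0.25), with its other probe set at 0.09. Hspb8, which works with BAG3 in selective autophagy, read 791 and 654 (-0.28), with further probe sets at -0.35 and -0.84. Bag3 itself read 974 and 861 (-0.18). Hspb6, a form abundant in muscle, read 55.9 and 69.2 (0.31), while Hspb2, Hspb3, Hspb7 and Hspb9 were below the floor on both arrays. No small heat shock gene was past 1.5-fold by its brightest probe set.

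Among J-domain proteins of the DNAJA class, Dnaja1, the main cytosolic partner of HSP70, read 6465 and 6092 (-0.09) and Dnaja2 3041 and 3053 (0.01). Dnaja3, the mitochondrial member known as Tid1, read 555 and 355, 1.56-fold lower in the null (-0.64), and its other measured probe set gave -0.78. Dnaja4 lay close to the floor, with a difference of 0.03. So within this class the mitochondrial member was the one that stood off, short of 2-fold.

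DNAJB genes had a median of -0.17 over 8 compared, with 5 below 0. Dnajb1, the HSP40 that HSF1 induces, read 1049 and 1001 (-0.07), with its other probe set at 0.03. Dnajb6, which keeps aggregation-prone proteins soluble, read 1933 and 2195 (0.18), with a dim probe set at -0.90, and Dnajb4 read 326 and 365 (0.16). Dnajb2, which carries ubiquitin-binding motifs, read 445 and 272, 1.64-fold lower in the null (-0.71), from its single probe set. Dnajb3, a form described in the testis, read 60.3 in control cells and 6.73 in null cells. The null value is below the floor, so the gene was at least 2.85-fold lower, from a control signal that is itself dim. Dnajb5 lay just inside the threshold at 42.8 and 21.5, 1.99-fold lower. Both are dim, and with the floor at the 67th percentile Dnajb3 was not measured in either sample.

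The DNAJC class is the most varied, and 23 of its 26 genes were compared, with a median of -0.11. Dnajc5, the cysteine string protein of secretory vesicles, read 725 and 905 (0.32), Dnajc7, which also binds HSP90, 1017 and 945 (-0.11), the splicing-associated Dnajc8 1605 and 1679 (0.06) and the mitochondrial Dnajc15 677 and 797 (0.23). These 4 were all within 1.5-fold. Dnajc10, an ER disulphide reductase, read 360 and 566, 1.57-fold higher in the null (0.65); its further probe sets gave 0.74 and 1.33. When probe sets with shared or alternative sequence were left out, the probe set at 1.33 was the one left and Dnajc10 became the only member called higher. Dnajc17, a nuclear J protein with an RNA-binding domain, had the largest difference of all members, from 683 in control cells to 186 in null cells, 3.66-fold lower (-1.87). Its other measured probe set read 34.6 and 30.4 (-0.19), so the call rests on a single probe set. With the median over probe sets it was -1.03. Outside the naming rule and picked after their values were seen, Dnajc14 (345 and 247) and Dnajc4 (224 and 166) stood at -0.48 and -0.43 on the log2 scale, and Dnajc24 (112 and 162) and Dnajc12 (126 and 172) at 0.53 and 0.45. Dnajc6, the auxilin of clathrin uncoating, read 40.9 and 20.2 and Dnajc27 19.6 and 34.6, each with 1 value under the floor.

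BAG proteins bind HSP70 through the BAG domain and release its nucleotide. Bag5, which carries several such domains, read 1124 in control cells and 560 in null cells, 2.01-fold lower, and its second probe set, at 51.8 and 33.3, gave -0.64. That is at the threshold itself, and centring the arrays on their medians moved Bag5 to -0.93, inside it. Bag1 read 1302 and 1626 (0.32) and Bag6, a chaperone for membrane proteins in the cytosol, 298 and 334 (0.16). Bag2 and Bag4 were at 0.17 and 0.31. Of 6 genes, 4 were above 0 and 1 was called lower.

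The exchange factor Hspbp1, which also acts on HSP70, read 115 and 192, 1.68-fold higher in the null (0.75), the largest excess among the members compared. Hspbap1, which binds HSPB1-related proteins, read 32.1 and 47.2 (0.55), with a second probe set at 0.87, and Hspb11, a subunit of the intraflagellar transport machinery of cilia, read 480 and 468 (-0.04). Of 7 ciliary markers, Foxj1, Rsph1, Ccdc39 and Pifo were below the floor on both arrays, and Tppp3 (115 and 102), Dnah5 (60.9 and 42.2) and Cfap126 (48.6 and 26.8) were above it. By place of work, the 8 mitochondrial members had a median of 0.03 (-0.64 to 0.39), the 9 of the ER -0.20 (-0.48 to 0.65) and the other 50 compared 0.10 (-1.87 to 0.75). These ranges overlap.

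Probe sets of the same gene often disagreed by more than the gene values differed from 0. Of 42 members with more than 1 measured probe set, 22 (52.4%) had all of them on the same side of 0, beside 63.1% of 5413 such genes overall. A span of more than 1 on the log2 scale was seen in 6 of the 42 (14.3%) and in 15.6% of genes overall: Hspa4l, Hspa8, Dnajc17, Dnajc1, Hspa4 and Dnajb6. In Hspa8 the brightest probe sets gave 0.16 and 0.22, while another gave -0.51 and the dimmest, at 385 in control cells and 139 in null cells, -1.47. Hspa4 had probe sets at -0.05, -0.19 and 0.13 and a dim one, 57.4 and 26.5, at -1.11. In Dnajc1, which resides in the ER membrane, the brightest probe set gave -0.29 and the dimmest measured one -1.36. Dnajc13, an endosomal protein, had -0.29 and, at 56.6 and 24.3, -1.22. Apart from Dnajc17, the probe sets past 2-fold lower in these genes were not those that set the gene's value. Further probe sets are dimmer by construction, since each gene took its brightest one. Over all 79 further member probe sets 4 were at least 2-fold lower and 1 at least 2-fold higher, beside 8.71% and 4.39% of 9246 further probe sets of all genes.

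**Figure D3:**
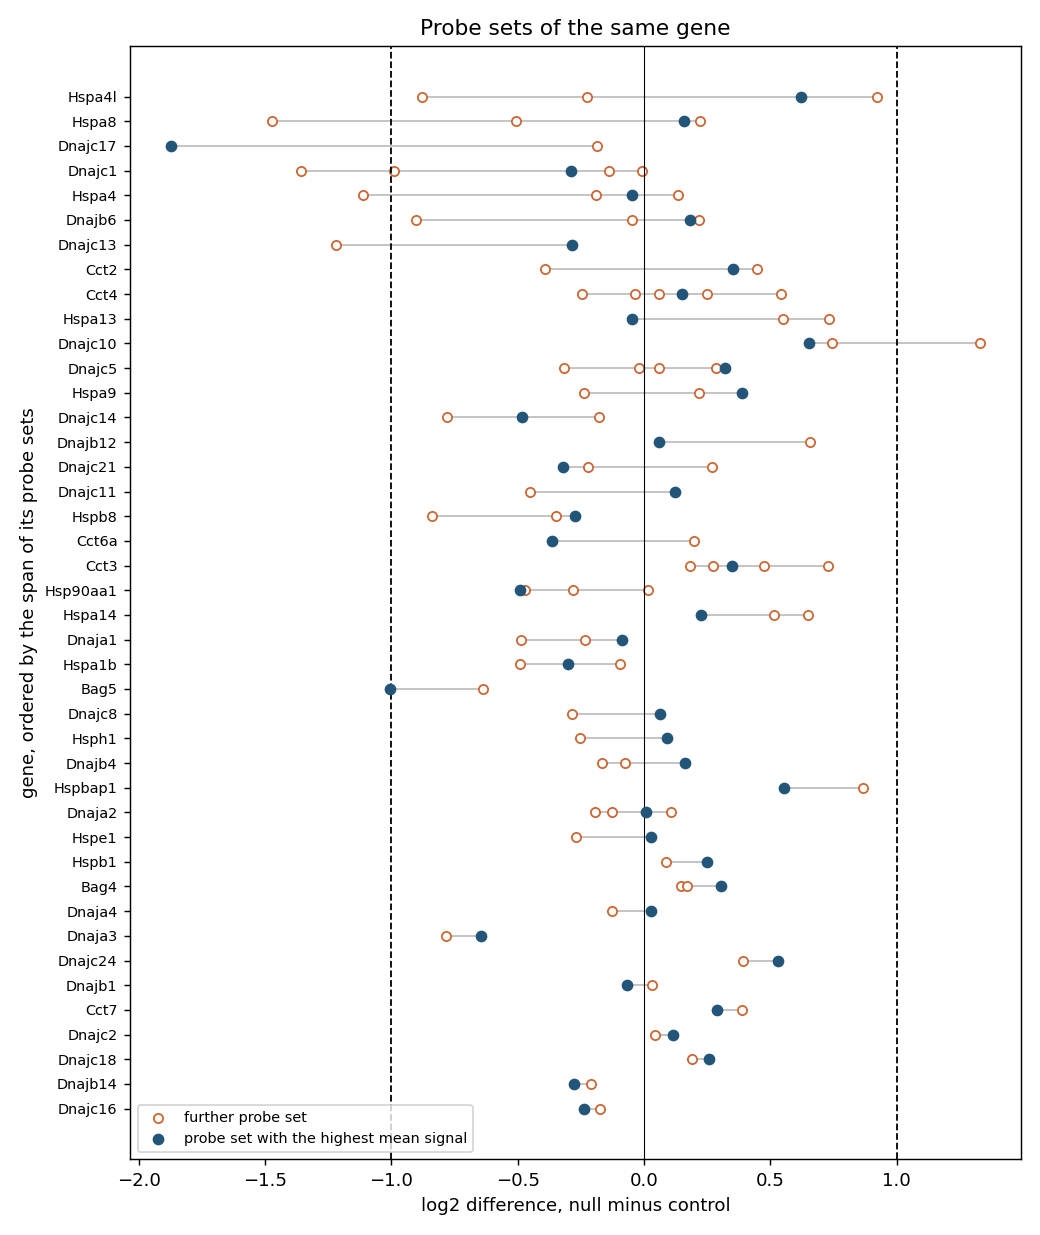
Log2 differences (null minus control, horizontal axis) of every measured probe set for the 42 members with more than 1, ordered by span; filled points are the probe set with the highest mean signal, open points the others, dashed lines 2-fold. Hspa4l, Hspa8 and Dnajc17 have the widest spans, and in Dnajc17 the 2 probe sets stand at -1.87 and -0.19.

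Genes of the same pathway outside the symbol rule were taken from lists set down with earlier results of these data known. Of all genes compared 12.5% were past 2-fold in either direction, and counts of 0 in lists this short are not far from that share. Of 20 HSP90 cochaperones compared none was past 2-fold, and the median was 0.15 (-0.58 to 0.53). St13, the HIP adaptor, read 1967 and 2549 (0.37) and Fkbp4, the immunophilin of steroid receptor complexes that the uterus needs for progesterone action, 1417 and 1589 (0.16). Among 11 partners of HSP70, some of them also on the previous list, none was past 2-fold either; the ubiquitin ligase Stub1 read 1159 and 1279, and the adaptor of mitochondrial import Tomm70a came nearest, at 642 and 326 (-0.98). The 11 partners of the chaperonin ring, prefoldin subunits and phosducin-like proteins among them, held none past 2-fold and had a median of -0.13, with Tcp1, the first CCT subunit, at 2601 and 2694 (0.05) and Pfdn5 at 1899 and 2166 (0.19). Of 10 regulators of HSF1 none was past 2-fold, and the median was -0.06. Below 0 were 7 of them, beside 5011 of all 11662 genes compared. Vcp read 3067 and 3605 and Psmb5 2345 and 2351, while Ranbp2 (670 and 401), Fbxw7 (355 and 218) and Ep300 (1242 and 829) stood at -0.74, -0.70 and -0.58; these last 3 were picked after their values were seen.

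The ER chaperones and unfolded protein response genes that the rule leaves aside had a higher median than the members. Of 16 compared, 13 were above 0, beside 6651 of all 11662 genes compared. The median was 0.43, beside 0.03 for the members and 0.08 over all genes. The difference between the groups was not tested. Past 2-fold were 1 gene higher and 1 lower (6.25% each), beside 7.73% and 4.75% of all genes. Sdf2l1, a partner of ER HSP70, was 2.48-fold higher in the null (116 and 288) and Hsp90b1, the ER HSP90, 2.43-fold lower (5558 and 2286). Hspa5, the ER HSP70 known as BiP, read 3736 and 5478 (0.55) and Calr, the lectin chaperone calreticulin, 4109 and 5499 (0.42). Among the members the 9 placed in the ER had a median of -0.20, so the 2 groups of ER genes differed in value, and their ranges overlap.

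Immediate early genes, which tissue dissociation is known to raise, were bright on both arrays. Fos read 8659 and 11313 (0.39) and Dusp1 4427 and 6462 (0.55). Of 14 such genes 12 were above 0, beside 6651 of all 11662 genes compared. None was past 2-fold, beside 12.5% of all genes compared. The median was 0.34, from -0.80 for Socs3 to 0.95 for Atf3. The 14 HSF1 targets among the members ran from -0.78 for Hspa1a to 0.62 for Hspa4l, 6 above 0 and 8 below, so the ranges overlap. That split rests on the probe set taken. With the median over probe sets Hspa8, Hspe1 and Hsph1 moved below 0, to -0.18, -0.12 and -0.08, and none of the 14 moved the other way. The difference between the groups was not tested. The part of the isolation step in either set of signals was not tested, since no array of tissue without that step was analysed here.

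**Figure D4:**
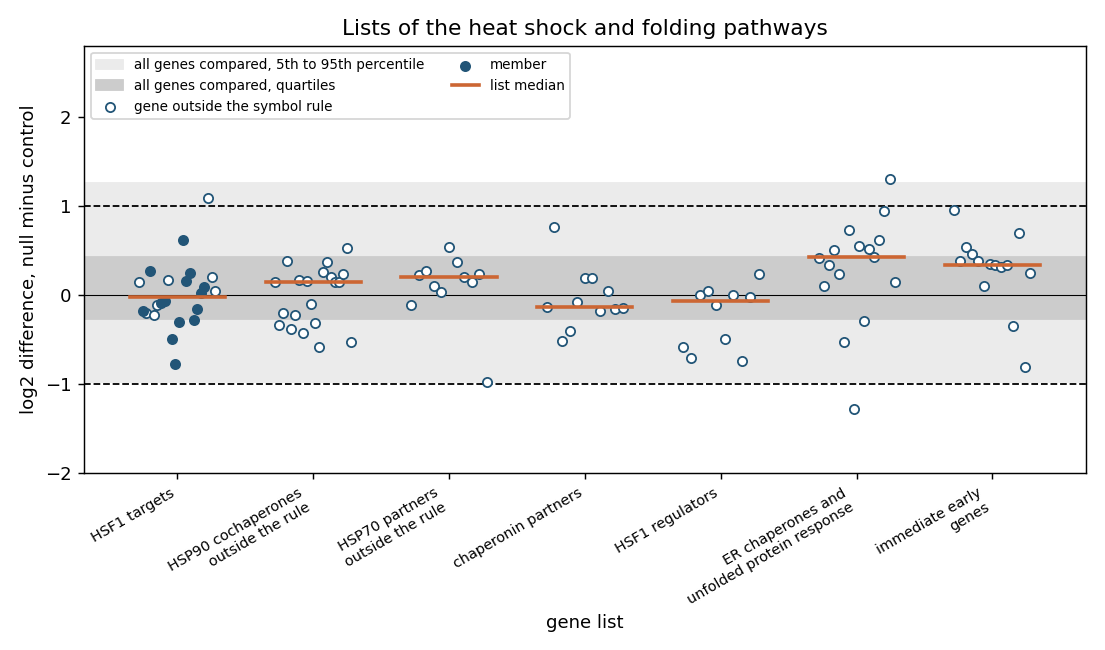
Log2 differences (null minus control, vertical axis) of genes on 7 lists of the heat shock and folding pathways and of immediate early genes; filled points are members of the symbol rule, open points other genes, orange bars list medians, grey bands all genes compared and dashed lines 2-fold. The HSF1 target list centres near 0 with Serpinh1 alone past 2-fold, while the ER list has a median of 0.43.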

How the data were processed

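RNA of uterine epithelial cells was hybridised to 1 array per genotype. The deposited values are signal intensities that the authors computed with the MAS5 algorithm (Affymetrix Expression Console, version 1), as the submitters' processing notes record; the 2% trimmed mean was 150.001 on both arrays. MAS5 scales each array, which hides differences in total RNA, and dim signals give unsteady ratios. No genome build is given in the sources used here. Gene names came from the platform's annotation (all 86 members matched the RefSeq table of GRCm38.p6), and 3 probe sets naming a member beside another gene were left out. Signals were floored at the 50th percentile and taken to log2 (Python 3.11.15, pandas 2.3.3, statsmodels 0.14.6), with 1 probe set per gene. The steps were run on simulated arrays with differences well past 2-fold planted in bright genes and little noise. That run checks the code and does not bear on calls near 2-fold or near the floor. Having 1 array per genotype allows no test and limits precision. Named genes were members past 2-fold, the 4 brightest per family, HSF1 targets, Cct and Hsf genes, and genes whose probe sets opposed each other by over 1 in log2; members named beyond that (Hspa2, Hspa13, Hspa14, Dnajb5, Bag2, Bag4, Dnajc1, Dnajc4, Dnajc6, Dnajc10, Dnajc12, Dnajc13, Dnajc14, Dnajc24, Dnajc27, Hsf2bp and those below the floor) were picked after their values were seen. The members and lists were chosen with earlier results of these data known. Protein sequences, foreseen in the plan, were not used here.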

Additional observations from a re-analysis of the deposited data

How the results depend on the processing

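The count of members at least 2-fold higher stayed at 0 with arrays centred on their medians, quantile normalization, loess, spike-in scaling, floors at the 33rd and 67th percentile, a pseudocount of 16 without a floor, and the median over probe sets. Of all genes compared, 4.32% to 9.15% were higher in those settings. The count of members was 1 of 56 without shared-sequence probe sets (Dnajc10, 1.79%, beside 7.68% of all genes). There Hspa8, left with its dim probe set, was at -1.47. The count lower was 3 and lay between 2 and 4 in all these settings, except for spike-in scaling. Such counts were 2.33% to 7.14% of the 56 to 86 members compared, beside 2.59% to 5.47% of all genes. Spike-in scaling moves the median of all genes from 0.08 to -0.20. There the count lower was 7 (10.4%, beside 8.96% of all genes) and the members' median was -0.26. With a 1.5-fold threshold 4 members were higher (5.97%, beside 17.5% of all genes) and 8 lower (11.9%, beside 12.0%), and with 3-fold 1 was lower (1.49%, beside 1.51%). None of the 3 members called lower changed sign in the settings that compared it, but Hspa8, at 0.16 and not called, lay between -0.18 and 0.23 in the other settings besides its -1.47. Dnajc17 was -1.03 with the median over probe sets, and Dnajb3, whose size is set by the floor, -2.81 at the 33rd percentile. No paired analysis was possible because each genotype has 1 array. Dim members near the floor have no order.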
